A study of Arabidopsis thaliana with 6 samples.

Results

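The lipoxygenase genes of Arabidopsis thaliana are LOX1 to LOX6, and all 6 were measured among the 27827 probe sets of the deposited table, each by 1 probe set named after its locus. They were taken by locus code, as the complete gene family. LOX2 (AT3G45140), LOX3 (AT1G17420), LOX4 (AT1G72520) and LOX6 (AT1G67560) encode 13-lipoxygenases, and LOX1 (AT1G55020) and LOX5 (AT3G22400) encode 9-lipoxygenases. LOX2 and LOX5 lie on chromosome 3 and the other 4 on chromosome 1, and in the gene order none is the immediate neighbour of another. The family was picked with the genotype difference of some of its members already known. Its differences are therefore given as values with the error of the fit, and no p-value is given for them.

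Lipoxygenases are iron enzymes that add oxygen to polyunsaturated fatty acids, chiefly linolenic and linoleic acid. A 13-lipoxygenase in the plastid makes the hydroperoxide from which allene oxide synthase and allene oxide cyclase lead to jasmonate, a hormone of wounding, insect defence and stamen development. A 9-lipoxygenase acts outside the plastid and feeds other oxylipins, which have been linked to lateral root growth and pathogen defence. Jasmonate raises the transcripts of several of its own synthesis genes through the transcription factor MYC2, and JAZ proteins hold MYC2 back until jasmonoyl-isoleucine and its receptor COI1 bring about their breakdown.

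Total RNA came from whole seedlings 17 days old, with 3 samples from wild-type plants (accession Col-0) and 3 from the naa20-1 mutant, in which the catalytic subunit of the N-terminal acetyltransferase complex NatB is depleted according to the series' design text. All seedlings grew without a treatment on 1x MS medium under short days, with 8.5 h of light per day at 100 µE. How the naa20-1 allele alters its gene, and whether the 3 samples of a genotype came from separate cultures, cannot be read from the labels. The p-values therefore speak only of the scatter among these particular samples, and that scatter may be technical. Values are log2 expression after RMA, a procedure that corrects background, gives all arrays the same distribution and condenses each probe set to a single value. Each difference is naa20-1 minus Col-0, errors are SD over n = 3 arrays unless an SE is named, and signals of different probe sets were not compared with each other. Calls are limma's, at an adjusted p under 0.05 after Benjamini-Hochberg correction across the 27241 genes that matched the gene table.

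Arrays correlated at 0.993 to 0.995 within a genotype and at 0.990 to 0.993 between genotypes, and their number limits the precision. NAA20 (AT1G03150), the gene of the depleted subunit, was lower in each naa20-1 sample, at 8.10, 7.60 and 7.36 against 8.79, 8.75 and 8.72 in Col-0. Its call (adjusted p = 0.0407, limma) was kept without naa20-1 replicate 1 and lost without any other sample. Over all genes, 1.15% were called, 0.767% lower and 0.382% higher in naa20-1, and the median difference was 0.01. In whole seedlings, fewer cells of a type and less RNA per cell cannot be told apart.

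In naa20-1 seedlings the transcripts of the 13-lipoxygenases LOX3 and LOX4 were lower, those of LOX2, LOX5 and LOX6 overlapped between genotypes, and that of the 9-lipoxygenase LOX1 was higher in every mutant sample. LOX4 and LOX3 were the 2 of 6 members called, both lower, beside 0.767% of all genes called lower. They were also the members whose naa20-1 values all lay below the Col-0 values, as did those of 10.5% of all genes. Since the family was chosen with this contrast in view, these counts are a description only. The same holds wherever a call of a member is said to be kept or lost, also under the alternatives of the closing section. Of the 6 differences 5 were below 0, and the median was -0.08.

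**Figure D1:**
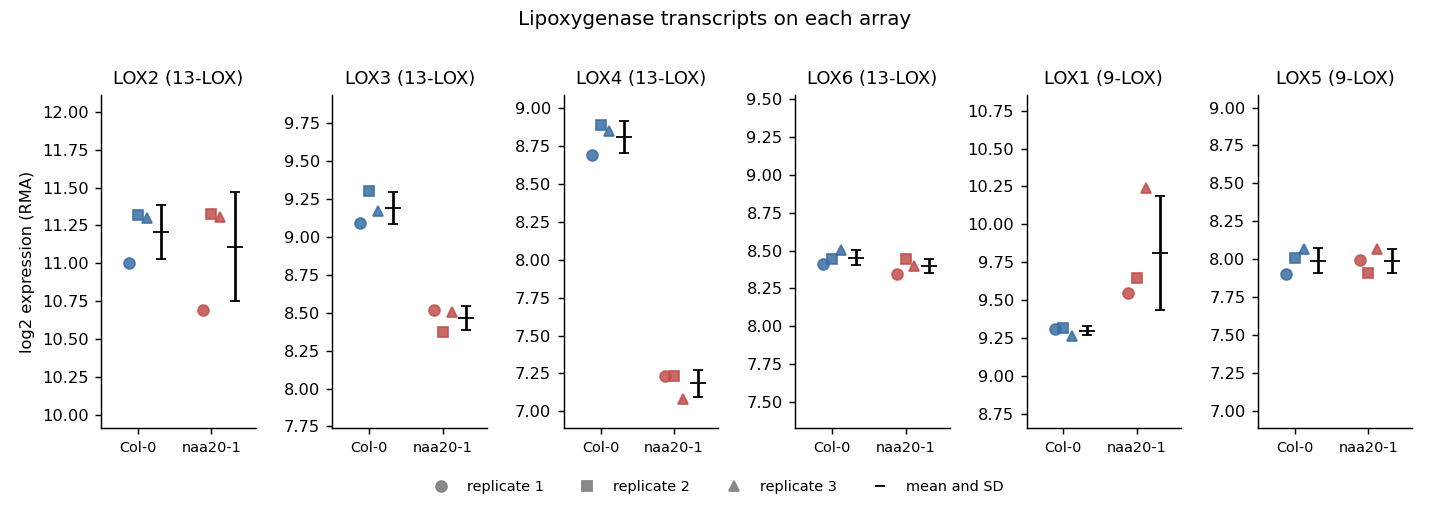
Log2 expression (RMA) of each lipoxygenase gene on each array, Col-0 in blue and naa20-1 in red, with marker shapes for the replicate numbers and black bars for mean and SD (n = 3); every panel spans the same range in log2 units around its own middle. LOX4 falls from 8.81 to 7.18 and LOX3 from 9.19 to 8.47 with no overlap, LOX1 is highest in naa20-1 replicate 3 at 10.24, and LOX2 is lowest in naa20-1 replicate 1 at 10.69.

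LOX4, which together with LOX3 makes the jasmonate needed for stamen development, showed the largest difference of the family. The 3 Col-0 arrays gave 8.69, 8.89 and 8.85, and the naa20-1 arrays gave 7.24, 7.24 and 7.08. The highest mutant value thus lay 1.45 below the lowest Col-0 value, while the values within a genotype ranged over 0.20 and 0.15. The means were 8.81 ± 0.11 and 7.18 ± 0.09, a log2 difference of -1.63 (SE 0.10, 95% interval -1.85 to -1.40), or 3.09-fold lower. Among the 27241 genes, 21 had a difference as low as that of LOX4, itself included. The call held with each of the 6 samples left out in turn, with differences from -1.69 to -1.58.

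LOX3 was lower by a smaller amount. Its values were 9.10, 9.30 and 9.17 in Col-0 and 8.52, 8.37 and 8.50 in naa20-1, again without overlap, with a gap of 0.58 between the genotypes. The mean went from 9.19 ± 0.10 to 8.47 ± 0.08, a difference of -0.73 (SE 0.09, 95% interval -0.95 to -0.51), or 1.65-fold lower, and 299 genes had a difference at least as low. The intervals of LOX3 and LOX4 do not meet. The call of LOX3 was kept without naa20-1 replicate 3 and lost without any other single sample, while its difference stayed between -0.77 and -0.67. LOX3 and LOX4 are close relatives in sequence, the probe sequences were not analysed here, and how far the signal of either takes in transcripts of the other was not tested.

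LOX2 supplies much of the jasmonate that wounded leaves make. Its values were 11.004, 11.32 and 11.30 in Col-0 and 10.69, 11.33 and 11.30 in naa20-1. Replicates 2 and 3 of both genotypes lay between 11.30 and 11.33, and replicate 1 was the lowest of each genotype. The difference was -0.10 (SE 0.19, 95% interval -0.53 to 0.33), and without naa20-1 replicate 1 it turned to 0.11. A change of LOX2 anywhere inside that interval, in either direction, therefore remains possible. The interval is not a limit for a call, since LOX1, with an SE of 0.18, had a difference of 0.51 and was not called. The pooled SD of LOX2, 0.28, was larger than that of 89.3% of all genes.

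LOX6, a 13-lipoxygenase known for early jasmonate formation near the vascular tissue and in roots, varied least within the genotypes. Its values were 8.41, 8.44 and 8.51 in Col-0 and 8.35, 8.44 and 8.40 in naa20-1, which overlap. The pooled SD was 0.05, smaller than that of all but 4.45% of genes and below the median of 0.14 over all genes. The difference of -0.06 (SE 0.08) had a 95% interval from -0.25 to 0.13, which leaves out a difference of the size seen in LOX3 or LOX4.

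The 9-lipoxygenase LOX1 was higher in all 3 naa20-1 samples, by unequal amounts. It was at 9.31, 9.32 and 9.27 in Col-0, within 0.05, and at 9.55, 9.64 and 10.24 in naa20-1, over a range of 0.70. Relative to the Col-0 mean the 3 mutant samples were higher by 0.25, 0.34 and 0.94. The genotypes did not overlap, which was the case in the same direction for 10.6% of all genes. The mean went from 9.30 ± 0.03 to 9.81 ± 0.38, a difference of 0.51 (SE 0.18, 95% interval 0.10 to 0.92) that was not called, and 459 genes had a difference at least as high. Without naa20-1 replicate 3 the difference was 0.30, also not called. That array had the lower correlations with its own group, 0.993 with each of the other two against 0.995 between those, and its part in the LOX1 value beyond this was not tested.

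LOX5, the other 9-lipoxygenase, overlapped fully between the genotypes. Its values were 7.90, 8.004 and 8.07 in Col-0 and 7.99, 7.91 and 8.07 in naa20-1. The difference was -0.0017 (SE 0.09), with a 95% interval from -0.21 to 0.21 that leaves out the point estimate of LOX1, although the intervals of LOX1 and LOX5 overlap. Differences between members were not tested.

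**Figure D2:**
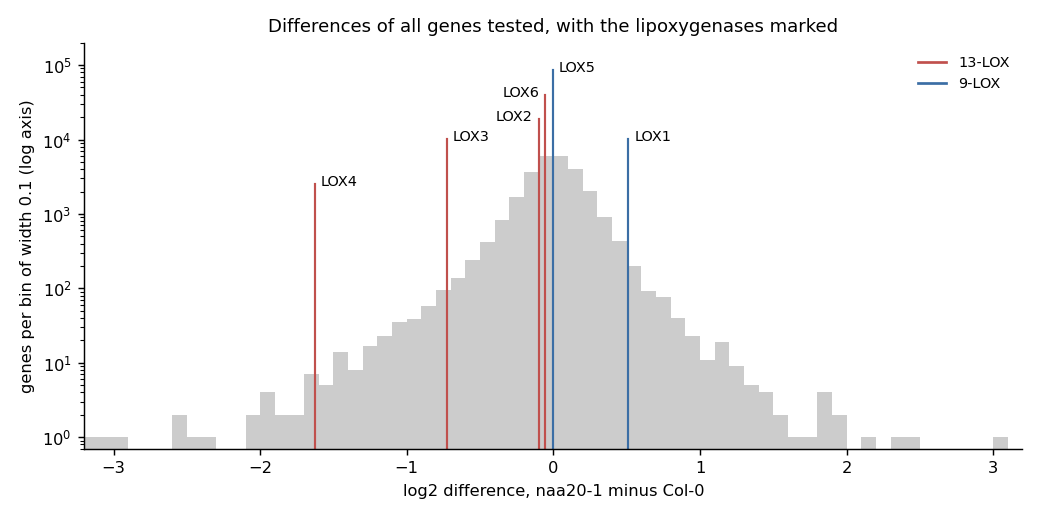
Number of genes (log axis) per bin of the log2 difference naa20-1 minus Col-0, over all 27241 genes tested, with vertical lines at the lipoxygenases, red for 13-LOX and blue for 9-LOX; line heights only separate the labels. LOX4 at -1.63 and LOX3 at -0.73 lie in the lower tail, LOX2, LOX6 and LOX5 near 0, and LOX1 at 0.51 on the upper side.

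The genes next to each lipoxygenase on the chromosome were looked at for differences of their own. Of the 12 nearest measured neighbours, 0 were called in limma, beside 1.15% of all genes. At an unadjusted p under 0.05 there were 2, beside 14.2% of all genes. The neighbours of LOX4 were AT1G72510, with a difference of 0.36 (SE 0.14, adjusted p = 0.293), and AT1G72530 with 0.09 (SE 0.26). Those of LOX3 were AT1G17410 with -0.05 (SE 0.15) and AT1G17430 with -0.25 (SE 0.20). AT3G22410, beside LOX5, had the lowest difference of the 12, at -0.51 (SE 0.12, adjusted p = 0.112).

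The genes whose profile over the 6 arrays lay nearest to LOX3 and LOX4 were found by the root mean square difference between log2 profiles, each centred on its own mean. WRKY18, a WRKY transcription factor gene, was nearest to LOX3, at 0.04, followed by GPAT3 (0.07), the cysteine-rich receptor-like kinase gene CRK11 (0.08), AT1G67470 (0.08) and AGL98 (0.09). WRKY18 was at 6.99 ± 0.05 in Col-0 and at 6.30 ± 0.10 in naa20-1, a difference of -0.69. The signal of AGL98 in naa20-1 (2.73 ± 0.03) was under 3.76, the 25th percentile of all values of the matched genes, where signal and background cannot be told apart. LOX4 had no gene as close. The profiles were centred but not scaled, so the distance takes in the size of the genotype difference. GASA5, of a family of small gibberellin-regulated proteins, was at 0.13, with AT5G14650 (0.14), AT5G19240 (0.14), AT1G36640 (0.15) and AT3G16670 (0.17) after it, and their differences ran from -1.52 to -1.37. LOX3 and LOX4 were at 0.46 from each other, with differences of -0.73 and -1.63. Because of these unequal sizes, the 0.46 does not show unlike patterns over the arrays. These genes were picked for their likeness, so their differences carry no test.

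**Figure D3:**
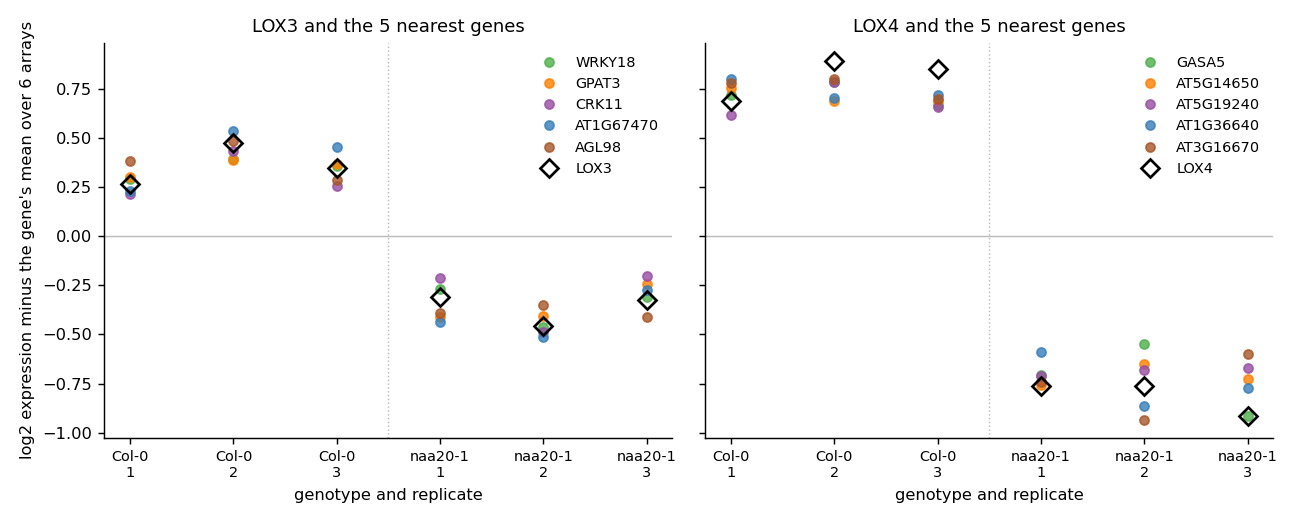
Log2 expression minus the gene's own mean over the 6 arrays, by genotype and replicate, for LOX3 (left, open diamonds) and LOX4 (right, open diamonds) and the 5 genes nearest to each by root mean square difference. The genes around LOX3 lie at 0.04 (WRKY18) to 0.09 from it, and those around LOX4 lie at 0.13 to 0.17.

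The comparison was then followed along the pathway with lists of genes before and after the lipoxygenase step. Genes that supply the fatty acid substrate, which are desaturases and lipases, held 0 calls among 9 in limma, beside 1.15% of all genes, and 3 at an unadjusted p under 0.05, beside 14.2%. Their median difference was 0.01, the same as over all genes. FAD3, which makes linolenic acid in the endoplasmic reticulum, was at 11.12, 11.09 and 11.08 in Col-0 and at 10.76, 10.64 and 10.50 in naa20-1. This is a difference of -0.46 (SE 0.09, adjusted p = 0.0791, limma) without overlap. It passed the threshold with the dimmest 40% of probe sets left out (adjusted p = 0.0383) and with a variance trend and robust fit (0.00530). These settings called more genes in all, 427 and 797 against 313. The difference of AT3G62590 went the other way, at 0.48 (SE 0.13, adjusted p = 0.162).

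Of 12 genes of jasmonate synthesis after the lipoxygenase step, 1 was called lower and 0 higher, beside 1.15% of all genes called, and the median difference was 0.10. The called gene was OPCL1, which activates a jasmonate precursor as its CoA ester in the peroxisome. It measured 8.73, 8.54 and 8.78 in Col-0 and at 8.09, 8.06 and 8.10 in naa20-1, a difference of -0.60 (SE 0.09, adjusted p = 0.0328, limma). The direction held with any sample left out but the call did not (adjusted p from 0.0612 to 0.128). AOS, the allene oxide synthase that takes up the 13-lipoxygenase product, was at 8.75 ± 0.12 and 8.60 ± 0.25 (difference -0.14, SE 0.14, adjusted p = 0.701). The difference of AOC3, an allene oxide cyclase, was 0.37 (SE 0.10, adjusted p = 0.160), and the cyclase genes AOC1, AOC2 and AOC3 are similar copies whose signals are uncertain for that reason.

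Other enzymes that oxygenate fatty acids or handle oxylipins gave 1 call among 5, again lower, beside 0.767% of all genes called lower. The called gene lay below 0 and the other 4 above it, with a median difference of 0.24. DOX1, an alpha-dioxygenase that oxygenates fatty acids without a lipoxygenase, went from 11.60, 11.58 and 11.65 in Col-0 to 10.90, 10.93 and 10.93 in naa20-1. The 2 sets of values lay far apart for their spread, with a difference of -0.69 (SE 0.08, adjusted p = 0.0129, limma). Its call was kept without naa20-1 replicate 1 or 3, and without naa20-1 replicate 2 or any Col-0 sample the adjusted p was 0.0505 to 0.0652. HPL1, listed here as a hydroperoxide lyase gene, was at 5.35 ± 0.21 and 5.41 ± 0.07. Whether HPL1 gives an active enzyme in this accession was not tested, so its transcript does not speak of competition for the 13-hydroperoxide.

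Genes of jasmonate turnover held 0 calls among 11 in limma, beside 1.15% of all genes, and 1 at an unadjusted p under 0.05, beside 14.2% of all genes. That gene, AT2G38240, measured 3.80 ± 0.09 in Col-0 and 3.52 ± 0.04 in the mutant (adjusted p = 0.200), the latter below that 25th percentile. AT5G05600 had a difference of -0.45 (SE 0.21, adjusted p = 0.408). The median of the list was -0.05. CYP94B1, CYP94C1, AT3G11180 and AT3G55970 had means under the same percentile in both genotypes, so that their signal is not shown to be above background.

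Jasmonate perception and the JAZ repressors held 0 calls among 17 in limma, beside 1.15% of all genes. At an unadjusted p under 0.05 there were 9, beside 14.2% of all genes. In 8 of the 17 all naa20-1 values were lower than all Col-0 values, beside 10.5% of all genes, and in 2 they were all higher, beside 10.6%. The 2 higher genes were JAZ4, with a difference of 0.42 (SE 0.11, adjusted p = 0.161, limma), and JAZ10, with 0.27 (SE 0.10, adjusted p = 0.294, limma). The median difference was -0.09. JAZ6 was at 10.24, 10.21 and 10.49 in Col-0 and at 9.32, 9.71 and 9.09 in naa20-1, just short of a call (difference -0.94, SE 0.17, adjusted p = 0.0513). JAZ1 was at 8.83 ± 0.14 and 8.31 ± 0.09 (difference -0.52, SE 0.10, adjusted p = 0.0737). MYC2, named here after its values were seen, was at 4.98 ± 0.28 and 4.26 ± 0.17 (adjusted p = 0.0946). JAZ6 and JAZ1 were called with the dimmest 40% of probe sets left out, JAZ6, JAZ1 and JAZ9 with a variance trend and robust fit, and JAZ6 without naa20-1 replicate 2 (adjusted p = 0.0397). The filter and the robust fit called more genes in all, 427 and 797 against 313.

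Among 7 genes that respond to jasmonate, 2 were called lower and 0 higher, beside 0.767% and 0.382% of all genes. VSP1, which encodes a vegetative storage protein, stood at 5.50, 5.31 and 5.39 in Col-0 and at 4.26, 4.25 and 4.37 in naa20-1, and its call held with any sample left out (adjusted p from 0.0148 to 0.0299). PR4 was at 10.36, 10.37 and 10.36 and at 9.89, 9.91 and 9.70, and its call was lost with any sample left out (adjusted p from 0.0831 to 0.155). The median difference of the list was 0.05, with 3 differences below 0 and 4 above it. Those above 0 were VSP2 (0.16), TAT3 (0.46), THI2.1 (0.05) and PDF1.2 (0.23), none of them called. The means of VSP2, THI2.1 and PDF1.2 were under 3.76, the 25th percentile, in both genotypes, so that their signal is not shown to be above background.

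**Figure D4:**
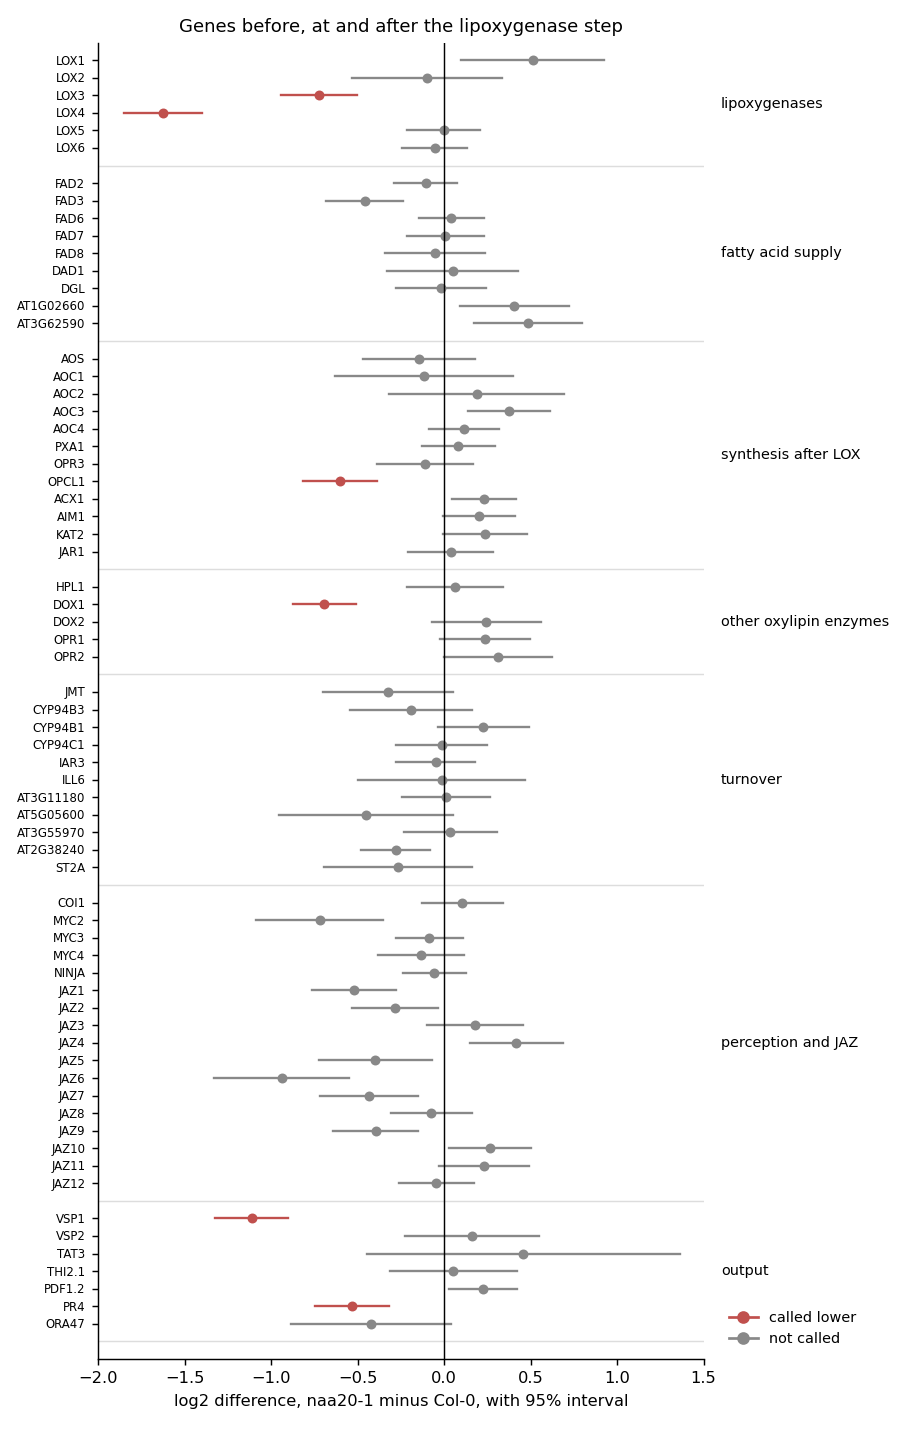
Log2 difference naa20-1 minus Col-0 (points) with the 95% interval of the fit (lines) for the lipoxygenases and for the genes before and after them in jasmonate metabolism and signalling, grouped by list, red where called lower and grey where not called. The called genes are LOX3, LOX4, OPCL1, DOX1, VSP1 and PR4, all lower in naa20-1, with LOX4 farthest from 0 at -1.63.

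Lipoxygenase and JAZ transcripts rise quickly when a plant is touched or wounded, so 7 early genes of that response were set beside them. Of these, 2 were called lower and 0 higher, beside 0.767% and 0.382% of all genes, and 5 differences were negative, with a median of -0.77. TCH3, a calmodulin-like gene named for its induction by touch, was at 9.29, 9.36 and 9.47 in Col-0 and at 8.51, 8.44 and 8.20 in naa20-1 (difference -0.99, SE 0.11, adjusted p = 0.0115, limma). Its adjusted p was 0.0254 to 0.0441 without a naa20-1 sample and up to 0.0584, no longer called, without a Col-0 sample. WRKY53 had a difference of -0.87 (SE 0.12, adjusted p = 0.0225), and its call was lost without any sample other than naa20-1 replicate 3 (adjusted p up to 0.0845). The summed signal of the 7 genes was 96.2% to 104% of its Col-0 mean in the Col-0 arrays and 57.5% to 77.2% in the naa20-1 arrays. The 5 negative differences, TCH3 and WRKY53 among them, had the direction of LOX3 and LOX4, while TCH4 (0.07) and ZAT12 (0.20) were above 0, and the part of these genes in the lipoxygenase values was not tested.

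Root and leaf markers were set beside the family because several lipoxygenase genes are active in roots. Of 13 root and 6 leaf markers, RHD6 and CAB2 were under the 25th percentile in both genotypes, so that their signal is not shown to be above background. The root markers held 0 calls in limma, beside 1.15% of all genes, and 9 of 13 at an unadjusted p under 0.05, beside 14.2%. Of their differences 11 of 13 were negative, and the median was -0.40. PYK10, among the 9 under 0.05, was higher in naa20-1 without overlap, at 0.23. Of the root hair genes, PRP3 was at -0.45, and PRP1, COBL9, EXPA7 and RHD6 ran from -0.07 to 0.035. TIP2;3, a tonoplast aquaporin, was at 10.27 ± 0.06 and 9.58 ± 0.22, at an adjusted p just above the threshold, and CASP4 of the Casparian strip at 6.07 ± 0.20 and 5.49 ± 0.16 (adjusted p = 0.102). The mean log2 signal of the list was 7.54 to 7.66 in Col-0 and 7.18 to 7.35 in naa20-1, whereas its summed signal, most of it from PYK10, was 97.7% to 102% and 99.4% to 109% of the Col-0 mean. The leaf markers held 0 calls in limma, beside 1.15% of all genes, and 0 at an unadjusted p under 0.05, beside 14.2%. Their median was -0.09, with summed signals of 97.8% to 101% and 96.8% to 98.7%. LHCB6 had a difference of -0.15 (SE 0.08, adjusted p = 0.460) and CAB2, which has near-identical copies, of -0.28 (SE 0.16, adjusted p = 0.501). The part of tissue proportions in the lipoxygenase values was not tested.

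**Figure D5:**
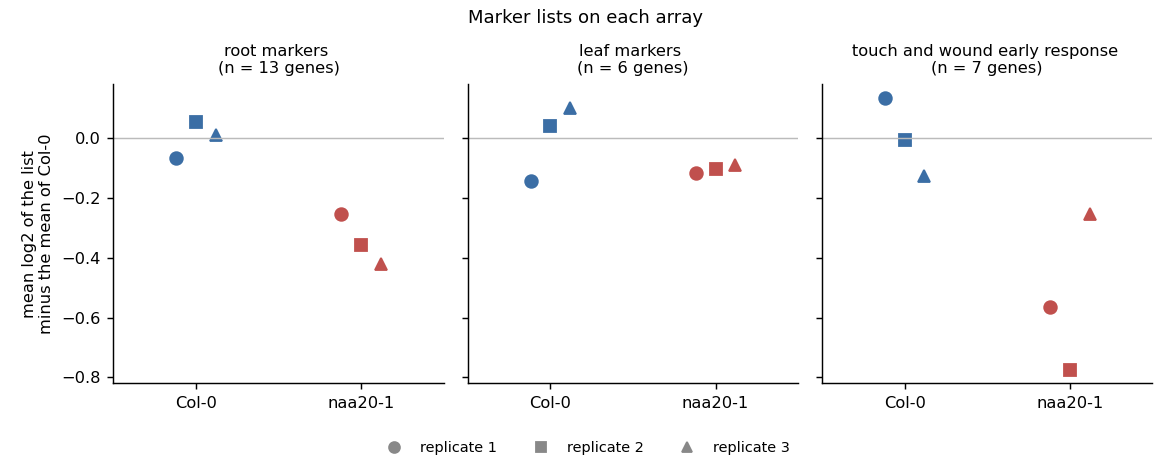
Mean log2 signal of the root markers (n = 13 genes), the leaf markers (n = 6) and the early touch and wound genes (n = 7) on each array, less the mean of the 3 Col-0 arrays, with blue for Col-0, red for naa20-1 and shapes for the replicate numbers. The root and touch lists are lower on all 3 naa20-1 arrays than on any Col-0 array, and the leaf markers overlap.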

How the data were processed

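The deposited table holds log2 expression values for 6 arrays, 1 per sample, which the authors made with RMA, per the submitters' processing notes. For the array type, the software and the genome build, the sources used here give nothing. Detection calls are absent, and signals near the bottom of the range were treated as possible background. Locus codes were matched to the gene table of assembly TAIR10.1 for names and gene order only. Of 95 list genes, 9 have no such name there. NAA20, NAA25 and DOX2 were named from general knowledge, and the other 6 appear by locus code.

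Genotype was fitted as a single term to the unaltered values (limma 3.58.1 under R 4.3.3, lmFit then eBayes, two-sided), a procedure tested on simulated data. The members, lists and tests were chosen with earlier results of these data known. Named were the 6 lipoxygenases, NAA20, up to 4 called members of each list (or the 2 with the smallest p where none was called), chromosomal neighbours and the 5 nearest profiles. AOS, AOC1 to AOC3, HPL1, MYC2, JAZ4, JAZ9, JAZ10, VSP2, THI2.1, PDF1.2, TCH4, ZAT12, RHD6 and PYK10 were named outside this rule, after their values were seen. So were TAT3, CYP94B1, CYP94C1, AT3G11180, AT3G55970, CASP1, PRP1, PRP3, COBL9 and EXPA7. The replicate numbers are those of the sample titles, and the sample descriptions number the naa20-1 samples differently. Samples with the same title number did not deviate together (correlations 0.024, 0.062 and 0.013), so no block was used. Alternatives are given in the closing section.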

Additional observations from a re-analysis of the deposited data

How the results depend on the processing

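The direction of LOX3, LOX4, LOX1 and LOX6 held with each of the 6 samples left out in turn, with LOX6 close to 0 (-0.08 to -0.03). The other alternatives refit the same arrays and leave the differences all but unchanged, so they bear on the calls and not on direction. Of the 12 alternatives, LOX4 was called in 12, LOX3 in 6 and LOX1 and LOX6 in 0. LOX2 was negative in 11 and LOX5 in 9 of 12, each change of sign coming with a sample left out, and neither was called in any. Repeated quantile normalization, median centring and keeping all probe sets moved no count beyond 1.5 times. With the dimmest 40% of probe sets left out, 427 of the remaining genes were called, against 313 of all genes. Under this setting 1 gene of fatty acid supply, 2 of perception, 1 of output, 1 of the touch list (WRKY53 and VSP1 being filtered) and 1 root marker were called. A variance trend and robust fit called 797 of all genes against 313, with 1 of fatty acid supply, 3 of perception and 3 root markers. Of these root markers CASP1 and TIP2;3 were lower and PYK10 was higher in naa20-1. With the replicate block, 190 of all genes were called, with 1 lipoxygenase (LOX4), 0 of jasmonate synthesis, 1 of output and 1 of the touch list. Leaving out each sample in turn gave 65 to 197 calls over all genes, 1 to 2 lipoxygenases lower, 0 of synthesis, 0 to 1 of the other oxylipin enzymes, 0 to 1 of perception, 1 of output and 0 to 2 of the touch list. Fewer samples leave fewer degrees of freedom. The cause of the other shifts was not tested. With 3 arrays per genotype, differences inside the intervals given for LOX2, LOX5 and LOX6 could not be resolved, and those somewhat beyond them need not have been called.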

Other observations

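The uneven rise of LOX1 was followed to the genes with the nearest profile over the 6 arrays, a step chosen after its values were seen. The nearest were NAS4, a nicotianamine synthase gene of metal transport (root mean square difference 0.05), BT4, which encodes a BTB and TAZ domain protein (0.05), AT3G15570 (0.05), AT1G25530 (0.05) and LPR1, a multicopper oxidase gene known from the root response to low phosphate (0.05). Each was highest in naa20-1 replicate 3, as LOX1 was, which follows from how they were picked. NAS4 stood at 8.93, 8.91 and 8.81 in Col-0 and at 9.09, 9.21 and 9.71 in naa20-1, and LPR1 at 4.03, 4.11 and 4.16 and at 4.39, 4.48 and 5.06. None of the 5 was called in limma (adjusted p from 0.200 to 0.264). They were picked for their likeness to LOX1, which was itself not called, so their differences carry no test.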
